A study of Mus musculus with 10 samples.

Results

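The genes that encode the subunits of the oxidative phosphorylation complexes were examined in the hippocampus of Dp1Tyb and wild-type (WT) mice. Members were the protein-coding genes whose symbols begin as those of complex I (Ndufa, Ndufb, Ndufc, Ndufs, Ndufv), complex II (Sdha to Sdhd), complex III (Uqcr), complex IV (Cox4 to Cox8) or ATP synthase (Atp5), or belong to the protein genes of mitochondrial DNA. The complex I assembly factors (Ndufaf) and Ndufv3 were excluded. Of 111 annotated genes with such names, 13 were not protein coding and 1 was not in the count table, which left 97 members of 43629 genes, 84 of them nuclear and 13 mitochondrial. All mice were of the strain C57BL/6J.129P2, and total hippocampus was sequenced from 5 Dp1Tyb animals, genotype Dp(16Lipi-Zbtb21)1TybEmcf, and 5 WT animals without the duplication. The Dp1Tyb allele is an engineered tandem duplication of a segment of chromosome 16 (16: 75540514 to 97962622 in GRCm38, from Lipi to Zbtb21), carried on one chromosome in every cell. Per the methods of the study, the animals were littermate males. Their age is 18 weeks in the labels and slightly higher in the methods.

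Oxidative phosphorylation takes place in the inner mitochondrial membrane. Complexes I and II feed electrons from NADH and succinate to ubiquinone, complexes III and IV pass them through cytochrome c to oxygen, and ATP synthase (complex V) uses the proton gradient that complexes I, III and IV build up. Complexes I, III, IV and V each combine subunits made in the cytosol from nuclear genes with a few hydrophobic core subunits encoded by mitochondrial DNA, whereas complex II is wholly nuclear. Neurons depend on this pathway for most of their ATP.

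Total counts ranged from 18227684 to 43692270 per library, and levels are given as CPM, which are counts scaled to a common library size with TMM factors for library composition. The 8 markers of hippocampal neurons were detected in every library, with a summed level of 1037 to 1189 CPM in WT and 1063 to 1159 CPM in Dp1Tyb. In 3 libraries the 12 markers of choroid plexus, an epithelium next to the hippocampus, were low, at 433 CPM in WT replicate 2, 43.5 CPM in Dp1Tyb replicate 1 and 52.2 CPM in Dp1Tyb replicate 4. They summed to 1464 CPM or more in the other libraries. Dp1Tyb replicate 4 also stood apart in the members themselves. It held the lowest level of 61 of the 94 tested members (64.9%), against 16.7% of all tested genes. Results that rest on it are therefore given with and without it. In bulk tissue, fewer cells of a type and less RNA per cell cannot be told apart.

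Of the members, 94 passed the filter on low counts and were tested in an edgeR quasi-likelihood fit of 17237 genes, with 5 libraries per genotype and Benjamini-Hochberg adjustment over all genes. Atp5j and Atp5o, the members within the duplicated segment, rose in Dp1Tyb. The remaining 92 members were not called in either direction, beside a background of 0.87% of all genes called higher and 0.238% called lower. At an unadjusted p under 0.05 there were 5 members higher and 7 lower, where 7.97% and 6.4% of all genes passed. By DESeq2, which called 2.16% of genes higher and 1.04% lower, 4 members were higher and 1 was lower. By limma voom, which called 0.841% higher and 0.238% lower, the counts were 2 and 1. A fit with the replicate number as a block called 1.18% of genes higher and 0.644% lower, among them 2 members higher and 1 lower.

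Atp5j (16: 84827866 to 84835625, minus strand) encodes coupling factor 6, a small subunit of the stalk that joins the 2 sectors of ATP synthase. In WT replicates 1 to 5 it measured 96.1, 92.4, 98.1, 84.4 and 87.6 CPM. In Dp1Tyb replicates 1 to 5 it measured 126, 137, 141, 105 and 140.1 CPM. Each Dp1Tyb library lay above each WT library, with replicate 4 nearest to the WT range. The log2 fold change was 0.50 ± 0.07 (SE, n = 5 per genotype, edgeR adjusted p = 0.0033), and the ratio of the mean CPM was 1.42, or 1.48 without Dp1Tyb replicate 4.

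Atp5o (16: 91925214 to 91931687, minus strand) encodes the oligomycin sensitivity-conferring subunit, which ties the peripheral stalk to the catalytic head. Its WT levels were 92.1, 85.9, 90.9, 92.7 and 94.7 CPM and its Dp1Tyb levels 139.6, 142.3, 146.6, 102.4 and 147.8 CPM. The groups did not overlap, and 4 Dp1Tyb libraries lay close together while replicate 4 sat far below them. The log2 fold change was 0.57 ± 0.08 (SE, n = 5 per genotype, edgeR adjusted p = 0.0027), and the ratio of the mean CPM was 1.49, or 1.58 without replicate 4. Annotated genes overlap Atp5o, a gene with the same symbol on the same strand and others on the opposite strand. Together they share 32.3% of its transcript windows of 75 bases, and how reads there were assigned was not tested. Among the 114 tested genes of the segment the median log2 fold change was 0.53, and 59.6% were called higher. Ranked from the highest fold change, Atp5o stood at position 44 and Atp5j at position 64 of these genes. Both subunits thus lay amid the fold changes of the segment, and no other ATP synthase subunit passed the threshold.

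**Figure D1:**
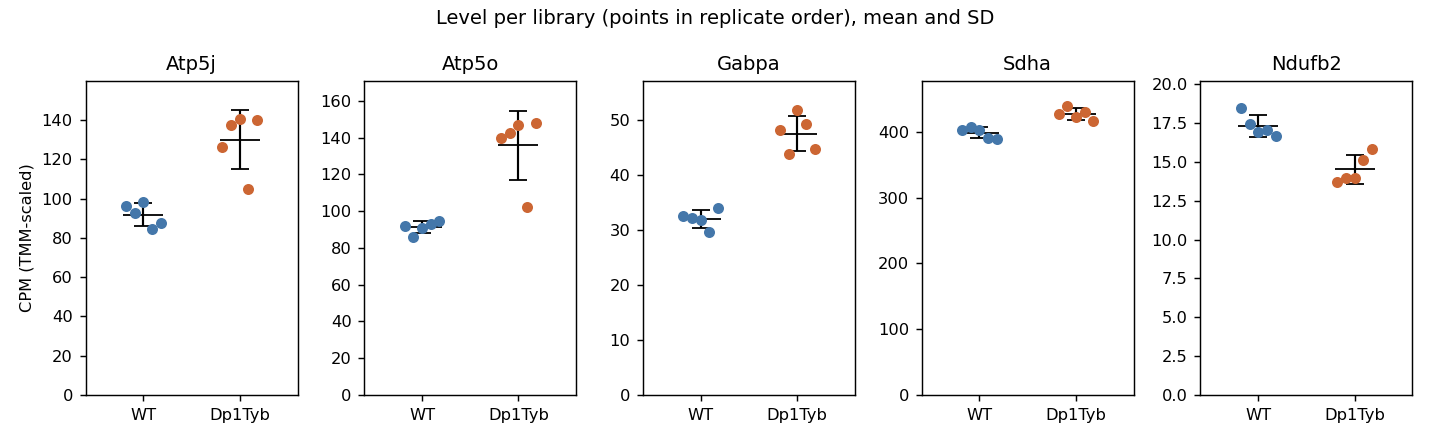
Levels in CPM (vertical axis, from 0) of 4 members and of Gabpa in each WT (blue) and Dp1Tyb (orange) library, with the mean (long bar) and SD (whiskers). Atp5j, Atp5o and Gabpa have Dp1Tyb libraries wholly above the WT libraries, and Dp1Tyb replicate 4, the fourth orange point, is the lowest of its group for both ATP synthase genes.

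Atp5j shares a promoter with Gabpa, which encodes the DNA-binding subunit of the transcription factor GABP (NRF2), known as an activator of many respiratory chain genes. The genes are transcribed away from each other, and both lie in the duplicated segment. A further RefSeq promoter window of Atp5j (84835576 to 84835875) lies beyond the Gabpa start and holds none of the letters marked below. The RefSeq start of Atp5j that faces Gabpa is at 84834976 and that of Gabpa at 84835124 on chromosome 16, with 147 bases between them. The stretch between them (chr16:84834977-84835123, GRCm38.p6, RefSeq, minus strand, 5′ to 3′ as read toward Atp5j) is shown because it serves both of these duplicated genes. Capitals mark, in order, the letters CGCATGCG (core of the NRF1 motif), AAGATGGC (YY1) and CCGGAAG (ETS family, to which GABPA belongs).

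Atp5j to Gabpa: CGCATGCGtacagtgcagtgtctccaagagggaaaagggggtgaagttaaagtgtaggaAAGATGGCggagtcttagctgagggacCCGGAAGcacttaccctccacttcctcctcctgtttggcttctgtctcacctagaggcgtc

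Gabpa measured 32.5, 32.2, 31.7, 29.6 and 34.0 CPM in WT and 48.1, 43.9, 51.7, 49.2 and 44.6 CPM in Dp1Tyb, again without overlap. It rose by a log2 fold change of 0.57 ± 0.06 (SE, n = 5 per genotype, edgeR adjusted p = 5.5e-05). Unlike Atp5j, its level in Dp1Tyb replicate 4 was within the range of the other Dp1Tyb libraries. The annotated Gabpa gene begins at 84834925 and overlaps the 5′ part of the Atp5j gene, which lies on the opposite strand. The library kit preserves strand, but the strand setting of the counting was not stated, so reads in the overlap may be assigned to either gene.

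The promoter letters of the nuclear members were then compared. RefSeq windows from 250 bases before to 50 bases after each start were found for 68 of the 84 nuclear members, in 73 windows. Searched on either strand, CCGGAAG was present in 21.9% of member windows and in 11.6% of 21263 windows of coding genes. AAGATGGC was present in 13.7% against 3.05%, and CGCATGCG in 12.3% against 2.52%. AAGGTCA, the site of the oestrogen-related receptors, was present in 10.96% against 4.08%. The first 3 of these occurred together in 1 member window, that of the Atp5j start facing Gabpa, and in 0.0282% of coding windows. A match of letters is a description of the window only. The 15 tested members outside the segment whose windows held CCGGAAG, among them Cox6a1, Cox8a, Sdhb and Uqcrh, had a median log2 fold change of −0.07, with 12 of 15 below 0. The 50 members without these letters also had a median of −0.07, with 41 of 50 below 0. The medians of the 2 sets were thus equal to 2 decimals, and no member outside the segment was called in either. For AAGATGGC the medians with and without the letters were −0.06 (9 members) and −0.08 (56 members). They were −0.10 (8 members) and −0.07 (57 members) for CGCATGCG, and −0.11 (8 members) and −0.07 (57 members) for AAGGTCA.

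The other nuclear members were numerous and lay mostly slightly below 0. Outside the segment, 63 of 80 tested nuclear members (78.8%) had a fitted fold change below 0, beside 51.3% of all genes, and their median log2 fold change was −0.07, beside −0.0041 over all genes. Without Dp1Tyb replicate 4, 54 of 80 were below 0 and the median was −0.02, while without Dp1Tyb replicate 5 it was −0.11. With the choroid plexus marker level as a covariate 42 of 80 were below 0 and the median was −0.0030. On the centred log2 scale this level was −4.81 and −4.55 in Dp1Tyb replicates 1 and 4, and higher in the other libraries. The covariate was therefore not balanced between the genotypes, and this fit is not separate from leaving out replicate 4. The size of this displacement thus depended on the libraries included, in both directions, and on the covariate. No member in it passed the test.

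**Figure D2:**
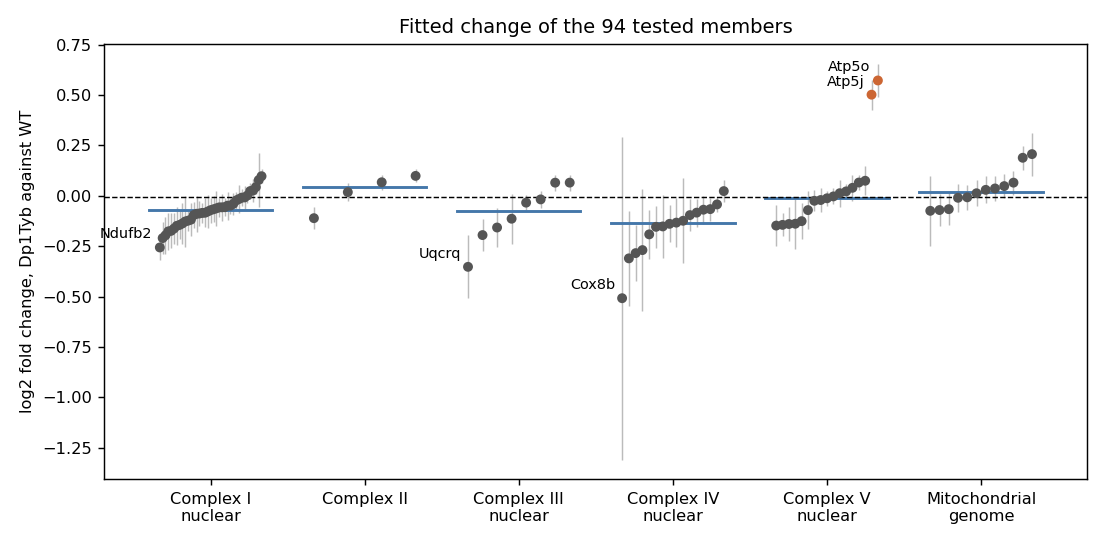
Fitted log2 fold change (vertical axis, Dp1Tyb against WT) of each of the 94 tested members, ordered within its complex or genome, with SE as grey bars. Orange points passed the test, blue lines are medians and the dashed line is the median of all tested genes. Atp5j and Atp5o stand apart from the other ATP synthase genes, and the medians of complexes I, III and IV lie below the dashed line.

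Complex I, the NADH dehydrogenase, contributed 37 nuclear members, all tested and none called. Their median log2 fold change was −0.07, or −0.03 without Dp1Tyb replicate 4 and −0.10 without Dp1Tyb replicate 5. The lowest was Ndufb2, an accessory subunit of the membrane arm, with 18.5, 17.4, 16.9, 17.1 and 16.6 CPM in WT and 13.7, 13.96, 13.96, 15.1 and 15.8 CPM in Dp1Tyb. Its groups did not overlap, which held for 1.12% of all genes in this direction, but its log2 fold change of −0.26 ± 0.06 (SE, n = 5 per genotype) gave an edgeR adjusted p of 0.067. It passed by DESeq2 (adjusted p = 0.0112) and narrowly by limma voom (adjusted p = 0.0499). Without Dp1Tyb replicate 5 it also passed in edgeR, with a log2 fold change of −0.29 and an adjusted p of 0.0456. It did not pass in the other 9 fits that left out 1 library, nor with the choroid plexus covariate (adjusted p = 0.160). The highest was Ndufa9, a subunit near the ubiquinone site, at 86.3 to 93.4 CPM in WT and 93.3 to 100.3 CPM in Dp1Tyb (log2 fold change 0.10 ± 0.04 SE, n = 5 per genotype, edgeR adjusted p = 0.244). Its ranges met but barely crossed. Ndufv3, excluded by the rule and located on chromosome 17 outside the segment, had a mean of 45.8 ± 2.9 CPM in the WT libraries and of 45.2 ± 4.2 CPM in the Dp1Tyb libraries (SD, n = 5 each).

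Complex II, succinate dehydrogenase, was the complex with the smallest spread between libraries, at a median coefficient of variation of 4.03% in WT and 3.96% in Dp1Tyb. Sdha, the flavoprotein that oxidises succinate, measured 403, 407, 403, 390.2 and 389 CPM in WT and 426, 439, 422, 429.8 and 416 CPM in Dp1Tyb. Each Dp1Tyb library was above each WT library, as for 2.56% of all genes, at a log2 fold change of 0.10 ± 0.03 (SE, n = 5 per genotype, edgeR adjusted p = 0.181). DESeq2 placed it just past the threshold (adjusted p = 0.0474). Sdhb, the iron-sulphur subunit, ranged from 92.1 to 99.9 CPM in WT and from 95.6 to 103 CPM in Dp1Tyb. Sdhc and Sdhd, the membrane anchors, had log2 fold changes of −0.11 ± 0.06 and 0.02 ± 0.04 (SE, n = 5 per genotype). These 3 genes overlapped between the genotypes and were not called. Summed over its 4 genes, complex II measured 629 to 654 CPM in the WT libraries and 655 to 681 CPM in the Dp1Tyb libraries, which met without overlap and were not tested as a sum. Sdha supplied most of this sum, with a mean of 398 CPM in WT beside 637 CPM for the 4 genes.

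In complex III, cytochrome bc1, none of the 8 nuclear members was called and the median log2 fold change was −0.07. The median was −0.02 without Dp1Tyb replicate 4 and −0.11 without Dp1Tyb replicate 5. Uqcrq, a small accessory subunit, was the lowest. It measured 43.8, 43.2, 49.8, 50.3 and 71.1 CPM in WT and 31.1, 41.1, 40.3, 35.0 and 55.3 CPM in Dp1Tyb. WT replicate 5 was far above the rest, and Dp1Tyb replicate 5 lay above 4 of the 5 WT libraries. Its log2 fold change was −0.35 ± 0.16 (SE, n = 5 per genotype, edgeR adjusted p = 0.327). This value was −0.21 without WT replicate 5, −0.49 without Dp1Tyb replicate 5 and −0.16 with the choroid plexus covariate. Uqcrc1, a core protein facing the matrix, was the highest, at a log2 fold change of 0.07 ± 0.04 (SE, n = 5 per genotype, edgeR adjusted p = 0.484).

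Complex IV, cytochrome c oxidase, had the lowest median of the nuclear groups, −0.14 over 16 tested members, of which 15 were below 0. Without Dp1Tyb replicate 4 the median was −0.06, again with 15 of 16 below 0, and without Dp1Tyb replicate 5 it was −0.20. With the choroid plexus covariate it was −0.0082 with 10 of 16 below 0. The summed level of its 18 nuclear genes was 1292 to 1482 CPM in WT. In Dp1Tyb it was 1252, 1302, 1354, 997 and 1410.5 CPM in replicates 1 to 5, so that 3 of the 5 Dp1Tyb libraries lay within the WT range. None of these members was called.

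Several complex IV subunits exist as paralogs with different tissue distributions, and the hippocampal levels per length (RPKM, the CPM per kilobase of merged exons) separated them clearly. With this length Cox8a was the most abundant nuclear member, at 345 ± 49 RPKM in WT (SD, n = 5), while Cox8b, known from heart and skeletal muscle, was at 4.4 ± 2.9 RPKM. Cox6a1, the form found in most tissues, was at 254 ± 21 RPKM and the muscle form Cox6a2 at 4.36 ± 0.49 RPKM. Cox4i1 was at 156 ± 7 RPKM and Cox4i2, known from lung, at 1.15 ± 0.32 RPKM. Cox6b1 and the testis form Cox6b2 were at 164 ± 8 and 3.28 ± 0.88 RPKM. Cox7a2, the form of most tissues, was at 82.0 ± 4.8 RPKM, its relative Cox7a2l, a supercomplex factor, at 70.1 ± 1.9 RPKM, and the muscle form Cox7a1 at 2.51 ± 0.72 RPKM. Cox7b2 had 0 to 10 counts per library and Cox8c had no count in any library, and neither was tested. For Cox8c a count of 0 allows up to 3 counts, or 0.165 CPM in the shallowest library, by counting error alone. The abundant form stayed far above its rare paralog in every library of both genotypes.

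**Figure D3:**
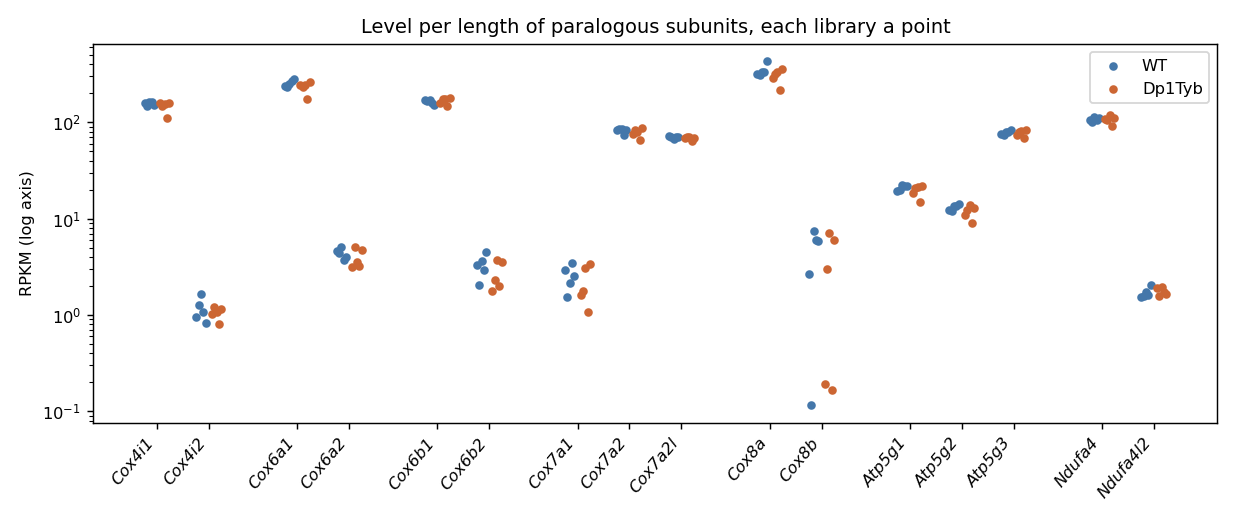
Level per length (RPKM, log axis) of paralogous subunits, with each WT (blue) and Dp1Tyb (orange) library as a point. Cox8a is at 345 ± 49 RPKM in WT while Cox8b varies widely between libraries of either genotype, with 3 of them far below the others.

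Cox8b showed the widest spread of the members. It measured 0.96, 0.042, 2.66, 2.15 and 2.10 CPM in WT and 0.069, 1.09, 2.56, 0.061 and 2.14 CPM in Dp1Tyb, from 1 to 71 counts per library. The 3 libraries near 0 were WT replicate 2 and Dp1Tyb replicates 1 and 4, which were also the 3 with low choroid plexus markers. Those markers ranged from 433 to 5499 CPM in WT and from 43.5 to 3914 CPM in Dp1Tyb when summed over 12 genes, none of them at 0 in any library. Their part in the Cox8b values was not tested. The log2 fold change of Cox8b was −0.51 ± 0.80 (SE, n = 5 per genotype, edgeR adjusted p = 0.802), and it was 0.65 with the marker level as a covariate, so no direction is given for it.

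In ATP synthase outside the segment, none of 15 tested members was called and the median log2 fold change was −0.02, or 0.01 without Dp1Tyb replicate 4 and −0.05 without Dp1Tyb replicate 5. The catalytic subunits Atp5a1 and Atp5b were at 254 and 244 RPKM over the 10 libraries, next to Cox8a at 323 RPKM. With the longest transcript as the length, the order changed to Atp5b at 539 RPKM, Cox8a at 364 RPKM, Cox4i1 at 307 RPKM and Atp5a1 at 298 RPKM. The membrane ring that turns with proton flow is built of identical c subunits encoded by Atp5g1, Atp5g2 and Atp5g3, whose mature proteins are the same. Of these Atp5g3 was the most abundant, at 78.3 ± 3.9 RPKM in WT, followed by Atp5g1 at 21.2 ± 1.3 RPKM and Atp5g2 at 13.1 ± 0.9 RPKM (SD, n = 5). The order of these 3 was the same in Dp1Tyb. With the longest transcript as the length, Atp5g3 was again the highest, at 196 RPKM, but Atp5g2 at 27.7 RPKM exceeded Atp5g1 at 21.2 RPKM over the 10 libraries. Atp5g2, the lowest fold change of the complex, was at −0.15 ± 0.10 (SE, n = 5 per genotype, edgeR adjusted p = 0.537), or −0.06 without Dp1Tyb replicate 4 and −0.0035 with the choroid plexus covariate. Of the 75-base transcript windows of Atp5g2, 35.8% also occur in other annotated genes. Atp5s, which the symbol rule includes, is a coupling factor and not a structural subunit.

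Ndufa4, counted here by its symbol with complex I though its protein is a subunit of complex IV, was at 108 ± 4 RPKM in WT (SD, n = 5). Its paralog Ndufa4l2, known to be induced in hypoxia, was at 1.69 ± 0.21 RPKM. The log2 fold changes were −0.0083 ± 0.057 for Ndufa4 and 0.08 ± 0.13 for Ndufa4l2 (SE, n = 5 per genotype), and neither was called.

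The fold changes of the nuclear members were ordered by the length of their coding sequences. This split was chosen after the values were seen. The 51 members with a longest annotated coding sequence under 500 bases had a median log2 fold change of −0.11, and 45 of them were below 0. The 19 members of 500 to 999 bases had a median of −0.06, and the 10 members of 1000 bases or more, such as Sdha, Atp5a1, Uqcrc1 and Ndufs1, had a median of 0.05 with 2 below 0. Across the 80 members Spearman's rho of length and fold change was 0.50, and 0.38 without Dp1Tyb replicate 4. The points share the same 10 libraries. Over 14899 tested coding genes the correlation was −0.0024, and the 1199 coding genes under 500 bases had a median of −0.02.

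The short members varied most between libraries, and their order with the long members was not the same in each. They deviated from their 10-library mean by a median of −0.31 in Dp1Tyb replicate 4 and −0.10 in Dp1Tyb replicate 1, and by 0.11 in Dp1Tyb replicate 5. In WT they deviated by 0.03, −0.0081, 0.09, −0.0028 and 0.14 in replicates 1 to 5. All these values are on the log2 scale. The long members stayed between −0.04 and 0.05 in every library. Over all coding genes under 500 bases the deviation in Dp1Tyb replicate 4 was −0.10. Without this library the median of the short members was −0.05, and with the choroid plexus covariate it was −0.0025. Dp1Tyb replicates 1 and 4 were also the Dp1Tyb libraries low in choroid plexus markers, and the part of these cells in the values was not tested.

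**Figure D4:**
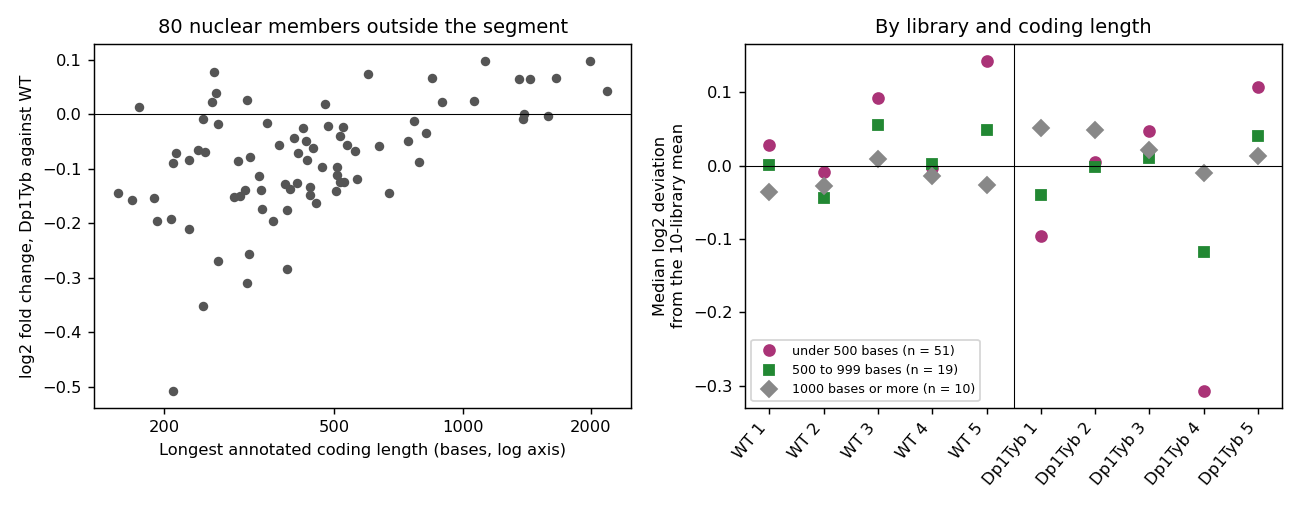
Left, log2 fold change of the 80 tested nuclear members outside the segment against their longest coding length (bases, log axis). Right, median log2 deviation of the same members from the mean of the 10 libraries, in 3 classes of coding length, for each library. Short members (purple) deviate by −0.31 in Dp1Tyb replicate 4 and by 0.14 in WT replicate 5, while the 10 longest (grey) stay between −0.04 and 0.05.

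Of the 13 mitochondrial members, 12 were more abundant per length than every nuclear member, and mt-Nd4l was the exception. The libraries were poly(A) selected, and the effect of this on mitochondrial levels was not tested. The 5 highest of all members were mt-Co1, mt-Co3, mt-Co2, mt-Atp6 and mt-Cytb, at 10874, 8290.0, 7601, 6854 and 4873 RPKM over the 10 libraries. Summed over the 13 genes, the level was 56867, 58125, 53168, 53614 and 58282 CPM in WT and 58039, 58040.1, 61763, 49640.0 and 55853 CPM in Dp1Tyb. The WT range lay wholly within that of Dp1Tyb, and Dp1Tyb replicates 3 and 4 were the highest and lowest of all. Over the 84 nuclear members the sum averaged 8197 ± 232 CPM in the WT libraries, with 8112 ± 477 CPM in the Dp1Tyb libraries (SD, n = 5 each). The ratio of mitochondrial to nuclear levels was 6.83 in WT and 6.98 in Dp1Tyb, or 2.77 ± 0.08 and 2.80 ± 0.07 on the log2 scale (SD, n = 5 each). The difference between the genotypes was thus smaller than the spread between libraries.

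**Figure D5:**
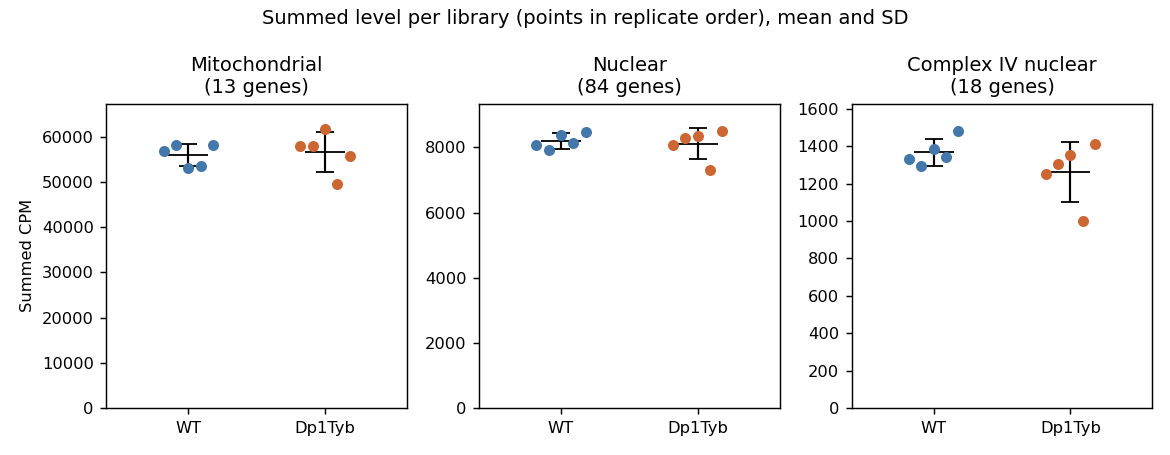
Summed CPM (vertical axis, from 0) of the mitochondrial members, the nuclear members and the nuclear complex IV members in each WT (blue) and Dp1Tyb (orange) library, with mean (long bar) and SD (whiskers). The genotypes overlap in all 3 panels, and Dp1Tyb replicate 4 is the lowest library in each.

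None of the 12 tested mitochondrial members was called. Their median log2 fold change was 0.02, with 7 above and 5 below 0. It was 0.06 without Dp1Tyb replicate 4 and −0.02 without Dp1Tyb replicate 3. The complex I genes mt-Nd1, mt-Nd2, mt-Nd3 and mt-Nd4 had log2 fold changes of 0.05, 0.01, −0.0077 and 0.04. The cytochrome b gene mt-Cytb was at 0.03. The complex IV core genes mt-Co1, mt-Co2 and mt-Co3 were at −0.01, −0.07 and 0.07, and the ATP synthase genes mt-Atp6 and mt-Atp8 at −0.07 and −0.07. All of these were within 2 SE of 0. The largest values belonged to 2 neighbouring complex I genes on opposite strands, mt-Nd5 and mt-Nd6. Their annotated spans overlap and the strand setting of the counting was not stated, so reads there may be assigned to either gene.

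mt-Nd5 (M: 11742 to 13565, plus strand) measured 3099, 3315, 3103, 2984 and 3509 CPM in WT and 3611, 3516, 4008, 3496 and 3612 CPM in Dp1Tyb. One WT library, replicate 5, reached above the lowest Dp1Tyb library. The log2 fold change was 0.19 ± 0.06 (SE, n = 5 per genotype, edgeR adjusted p = 0.168), and DESeq2 called it (adjusted p = 0.0221). mt-Nd6 (M: 13552 to 14070, minus strand) is the only mitochondrial member on the minus strand. It measured 591 to 722 CPM in WT and 704, 835, 900.2, 554 and 756 CPM in Dp1Tyb, where replicate 4 was below each WT library. Its log2 fold change was 0.21 ± 0.11 (SE, n = 5 per genotype, edgeR adjusted p = 0.400), or 0.13 without Dp1Tyb replicate 3. It was 0.30 without Dp1Tyb replicate 4 and 0.31 with the choroid plexus covariate, and mt-Nd6 was called in neither fit.

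Mitochondrial transcripts are cut from long precursors, and 2 pairs of neighbouring members overlap within a single messenger RNA. The overlaps are shown because a read within one belongs to both genes. Capitals mark the shared bases, which begin with the start codon of the downstream gene. The first lies at chrM:7927-7969 (43 bases) and the second at chrM:10167-10173 (7 bases), on the plus strand of GRCm38.

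mt-Atp8 and mt-Atp6: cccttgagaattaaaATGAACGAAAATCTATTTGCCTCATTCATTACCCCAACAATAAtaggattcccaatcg
mt-Nd4l and mt-Nd4: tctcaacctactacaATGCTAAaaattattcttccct

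mt-Atp8 was at 991 ± 248 RPKM in WT and varied from 139.5 to 262.0 CPM over the 10 libraries, although it shares its messenger with mt-Atp6 at 7022 ± 328 RPKM (SD, n = 5). mt-Nd4l had 1 to 6 counts per library, while mt-Nd4 on the same messenger was at 3913 ± 251 RPKM, and it was not tested. Levels of these genes are therefore uncertain. Of the 75-base windows of mt-Nd4l, 98.7% also occur in the nuclear pseudogene Gm10222, and reads with several alignments were discarded. The same held for 99.9% of windows of mt-Co3, 99.5% of mt-Co2 and of mt-Atp6, and 97.8% of mt-Nd3, yet these genes had high counts while their pseudogene copies Gm28437, Gm28661, Gm10925 and Gm28438 had 0, 59, 5 and 5 counts over all libraries. How reads were divided between such copies was not stated. Among the nuclear members, 26 of 84 had any window in a gene that does not overlap them and 9 had more than 10%, with Atp5g2 the highest. Windows shared with overlapping genes were counted apart and were at 32.3% in Atp5o, 27.8% in Ndufb6 and 25.6% in Ndufa13.

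The other genes of the pathway were described from lists. Of 47 tested assembly factors none was called, with a median log2 fold change of −0.01. Of 19 electron carriers and ubiquinone enzymes outside the rule none was called, with a median of −0.03. Among them Cyc1, a haem subunit of complex III, was at −0.07 ± 0.05 (−0.03 without Dp1Tyb replicate 4) and cytochrome c, Cycs, at −0.02 ± 0.08 (SE, n = 5 per genotype). Of 27 genes for the transcription, maintenance and processing of mitochondrial DNA and RNA none was called, with a median of −0.03. Tfam, which packages mitochondrial DNA, was at 0.11 ± 0.04 (edgeR adjusted p = 0.288) and Polrmt, the mitochondrial RNA polymerase, at −0.15 ± 0.06 (edgeR adjusted p = 0.300, n = 5 per genotype for both). The 20 genes of the tricarboxylic acid cycle and the 19 of glycolysis had medians of 0.05 and 0.06, with none called by edgeR and 3 glycolytic genes (Eno2, Pfkl and Pfkm) called higher by DESeq2, which called 2.16% of all genes higher. Beside these stood the all-gene median of −0.0041. Above 0 were 15 of the 20 cycle genes and 15 of the 19 glycolytic genes, beside 8395 of all 17237 tested genes. At an unadjusted edgeR p under 0.05, 6 genes passed in each of these lists, beside 2477 of the 17237.

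Of 18 nuclear regulators of respiratory genes, 2 were called higher and 1 lower, beside 0.87% and 0.238% of all genes. The higher ones were Gabpa and Nrip1, a corepressor of oxidative genes (log2 fold change 0.56 ± 0.06 SE, edgeR adjusted p = 8.2e-05, n = 5 per genotype), both in the duplicated segment, where 59.6% of tested genes were called higher. The lower one was Gabpb2 on chromosome 3, which encodes a partner subunit of GABPA. Gabpb2 measured 52.5, 54.0, 50.9, 48.0 and 47.2 CPM in WT and 39.8, 39.7, 41.7, 44.3 and 40.1 CPM in Dp1Tyb, without overlap. It fell by 0.30 on the log2 scale (SE 0.05, n = 5 per genotype, edgeR adjusted p = 0.0097). Thus the DNA-binding subunit of GABP was higher and one of its partner subunits lower in the same libraries. Gabpb1, the other partner gene in the list, was tested and not called. Nrf1 and Ppargc1a, an activator and a coactivator of respiratory genes, were at 0.06 ± 0.07 and 0.02 ± 0.08 (SE, n = 5 per genotype) and were not called.

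Further genes of the segment were listed for a link to mitochondria, direct or indirect, with earlier results of these data known. The list of 9 duplicated genes held Atp5j, Atp5o, the regulators Gabpa and Nrip1 described above, and the genes named below. Of these 9, 8 were called higher, at a median log2 fold change of 0.56. Over the 114 tested genes of the segment, 59.6% were called higher at a median of 0.53. Mrpl39, of the large subunit of the mitochondrial ribosome, rose by 0.60 ± 0.07 (edgeR adjusted p = 0.00022), Rcan1, a calcineurin inhibitor, by 0.56 ± 0.04 (edgeR adjusted p = 1.0e-05) and Cryzl1, a quinone reductase-like protein, by 0.53 ± 0.05 (edgeR adjusted p = 2.6e-05). Sod1, the copper-zinc superoxide dismutase, rose by 0.43 ± 0.07 (SE, n = 5 per genotype, edgeR adjusted p = 0.0097). Mrps6, of the small ribosomal subunit, was at 0.51 ± 0.14 (edgeR adjusted p = 0.106), and at 0.60 with an adjusted p of 0.039 without Dp1Tyb replicate 4.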

How the data were processed

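RNA sequencing data of 10 hippocampi, 5 WT and 5 Dp1Tyb, were used, with 1 stranded poly(A) library of paired 75-base reads per animal. Trim Galore was used by the authors for trimming, per the labels, and they aligned reads to GRCm38 with TopHat2 2.0.12, discarded reads with several alignments and counted reads per gene with HTSeq. The deposited counts are whole numbers, not normalized. The authors' normalized table and their DESeq2 1.6.3 comparison, with its fold changes and p-values, were not used.

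Genes were matched by ID to GENCODE M21 (42462 of 43629 matched, 1167 not). Counts were tested with edgeR 4.0.16 in R 4.3.3 (filterByExpr, TMM, glmQLFit and glmQLFTest, genotype as the only term, no covariates), at an adjusted p under 0.05. The script was tested on simulated data. RPKM used the merged exon length. Deviations used log2 of CPM plus 0.5. Replicates are separate mice. The labels give no batch.

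Named genes were Atp5j and Atp5o, members past the threshold, the highest and lowest fold change of each group, the mitochondrial, Sdh and paralogous members, the 5 most abundant members, and a few regulators, carriers and called list genes. Members and lists were chosen with earlier results of these data known. Alternatives were DESeq2 1.42.0, limma 3.58.1 (voom), other size factors, no filter, library sizes without mitochondrial genes, each library left out, a replicate block, the choroid plexus marker level as a covariate and the longest transcript as the length. Windows of 75 bases were compared between annotated transcripts only.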

Additional observations from a re-analysis of the deposited data

Results flagged for a closer look

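In 9 of 126 groups of 5 libraries examined (each named gene and summed level in each genotype), 1 library lay far from the other 4, by the gap to its nearest neighbour as a share of the whole range. Chance alone flags about 5% of such groups, or 6.3 of 126. Dp1Tyb replicate 4 was the low library in 4 of the 9: Atp5o (share 0.818, 102.4 CPM against 139.6 to 147.8), Cox4i1 (0.794, 173.0 CPM against 231 to 247), Cyc1 (0.734, 107.9 CPM against 121.5 to 126.4) and Mrpl39 (0.865, 26.8 CPM against 32.7 to 33.6). WT replicate 5 was high in Cox8a (0.779, 267 CPM against 191 to 207) and in Uqcrq (0.745, 71.1 CPM against 43.2 to 50.3). WT replicate 4 was low in Cox7a2 (0.760, 69.5 CPM against 77.9 to 80.6). Dp1Tyb replicate 3 was high in mt-Nd5 (0.774, 4008 CPM against 3496 to 3612), and Dp1Tyb replicate 5 was low in Tfam (0.711, 32.3 CPM against 34.5 to 35.5).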

How the results depend on the processing

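Atp5j and Atp5o remained called and higher under every alternative, at log2 fold changes of 0.47 to 0.58 and 0.54 to 0.66. The genes called over the whole table numbered 191, 507 by DESeq2, 315 with a replicate block and 105 to 218 when 1 library was left out, with the fewest without WT replicate 4 or Dp1Tyb replicate 2. Members called higher numbered 2, or 4 by DESeq2 (Sdha and mt-Nd5 added). Members called lower numbered 0, or 1 by DESeq2, 1 by voom, 1 with the block and 0 to 1 with 1 library left out. With the block that member was Uqcrq (−0.35, edgeR adjusted p = 0.021). The labels do not say whether libraries with the same replicate number were paired. Deviations of same-numbered libraries correlated at 0.219, −0.027, 0.212, −0.069 and 0.277, and 1 of the 5 numbers correlated best with itself. DESeq2 called 3 glycolytic genes, edgeR 0. The median level of the members was 50.6 RPKM with merged exons and 68.8 RPKM with the longest transcript. Of 52 other named genes with a test, 33 kept their sign throughout. With the choroid plexus covariate the sign turned for Atp5g3 (0.050), Cox6b2 (0.036), Cox7a1 (0.12), Cox8b (0.65), Ndufa4 (0.059), mt-Co1 (0.020), mt-Co2 (0.0090), mt-Nd3 (0.031), Cycs (0.069) and Ndufv3 (0.047). With 1 library left out it turned for genes whose ranges were −0.056 to 0.010 for Atp5g3, −0.21 to 0.015 for Cox4i2, −0.0058 to 0.064 for Cox6b1, −0.046 to 0.041 for Ndufa4, −0.0070 to 0.043 for Sdhd, −0.11 to 0.00067 for mt-Atp6, −0.21 to 0.031 for mt-Atp8, −0.041 to 0.040 for mt-Co1, −0.11 to 0.0011 for mt-Co2, −0.0056 to 0.071 for mt-Cytb, −0.026 to 0.052 for mt-Nd2, −0.058 to 0.028 for mt-Nd3, −0.00045 to 0.059 for mt-Nd4, −0.036 to 0.061 for Ppargc1a, −0.053 to 0.047 for Cycs and −0.054 to 0.032 for Ndufv3, none of them called. The cause of these shifts was not tested. With 5 mice per genotype, small differences in the rarest members (Cox7b2, Cox8c) were not detectable at this depth. For Cox8b the wide spread between libraries was a further limit. For mt-Nd4l, reads with several alignments were discarded, so its few counts need not reflect a rare transcript.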
